A study of Danio rerio with 16 samples.

Results

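The nr4a1 mutant ventricle was compared at 7 and 2 days post-cryoinjury (dpci) by bulk RNA-seq, the stretch of zebrafish heart repair that runs from early inflammation into the build-up of new matrix. The comparison takes the 4 mutant libraries of these stages out of 16, with 2 libraries at 7 dpci and 2 at 2 dpci. Its members are the 17310 genes, of 31351 listed, with at least 10 counts in at least 2 of the 4 libraries. The mutant fish carry the nc40 allele of nr4a1, a CRISPR/Cas9 insertion in exon 2 that creates a premature stop codon, and all mutant samples come from this single allele. Adult fish, 0.5 to 1 year old, had the apex of the ventricle touched with a metal probe cooled in liquid nitrogen, and whole ventricles were collected. The wild-type ventricles, used here only where the mutant change is set against theirs, had the same injury at the same stages, again with 2 libraries each. How many ventricles went into a library, and whether the libraries of a group came from separate fish, is not given in the sources used here. All p-values therefore measure only the spread between libraries of a condition, which may be technical. That spread was estimated jointly over all 16 libraries and shared across genes.

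Zebrafish regrow heart muscle after a cryoinjury. Dead tissue is first invaded by neutrophils and macrophages that engulf debris, fibroblasts and epicardial cells then lay down a transient collagen scar, and cardiomyocytes at the border divide to replace it. Nr4a1 is an orphan nuclear receptor that is induced as an immediate early gene and is known for limiting the inflammatory activity of myeloid cells in mammals.

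Counted reads came to 17608695 and 14333475 in the libraries at 7 dpci, against 14881714 and 17121336 at 2 dpci, and to 14333475 to 27668498 over all 16 libraries. Levels are given as CPM, library-size-scaled counts with TMM factors, for both libraries of a group. On log2 CPM, the Euclidean distance over the tested genes was 42.9 to 43.3 within a stage and 83.5 to 85.3 between stages, so the stages stood apart by about the same amount in every pairing. The libraries of a stage differed by more than sampling noise, with a chi-square per degree of freedom of 1.93 at 7 dpci and 2.41 at 2 dpci. The presence of heart muscle was checked on cardiomyocyte markers, which were abundant in all 4 libraries. Among them, actc1a, cardiac actin, had 9338 and 9199 CPM at 7 dpci, against 7876 and 7742 CPM at 2 dpci. This does not tell ventricle from other parts of the heart.

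Between the stages, 2156 genes were called higher at 7 dpci and 1916 lower. Together that is 23.5% of the tested genes, the background for the counts of list members called in either direction. A call takes an adjusted p below 0.05 in edgeR together with a log2 fold change beyond 0.5 in either direction. Changes over 1 on the log2 scale were found for 863 higher and 493 lower genes, and changes over 2 for 184 and 70. The higher genes made up 52.9% of the calls. Under scaling by library totals alone the counts were 1710 and 2543, a share of 40.2%, so the balance of higher and lower genes depends on the scaling. Both 7 dpci libraries lay above both 2 dpci libraries for 35.6% of the genes and below both for 34.5%. The median log2 fold change of all tested genes was 0.011. It was −0.075 under scaling by library totals, and −0.030 to −0.018 when any 1 of the 4 libraries was left out, so the sign of this median is not fixed.

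The mutated gene itself was transcribed in all mutant libraries. nr4a1 had 133 and 135 CPM at 7 dpci, against 83.4 and 82.2 CPM at 2 dpci, so both 7 dpci libraries lay above both 2 dpci libraries (log2 fold change 0.70 ± 0.047 (SE), edgeR adjusted p = 2.99e-20). In wild type it had 213 and 220.0 CPM at 7 dpci, against 85.5 and 86.5 CPM at 2 dpci. The counts do not tell the alleles apart, so the transcript level does not check the genotype of a library.

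Across the gene lists the mutant ventricle moved in a few directions at once. Genes of collagen, basement membrane and matrix proteases were mostly higher at 7 dpci, while genes of the cell cycle, the proteasome and red blood cells were mostly lower. Lymphocyte genes were mostly higher too, but 6 of the 14 tested passed the count filter through the 7 dpci libraries alone. The filter favours a rise of such genes, so the direction of this list is a description. The lists of ribosomal proteins, respiratory chain and cardiomyocyte genes had few calls.

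**Figure D1:**
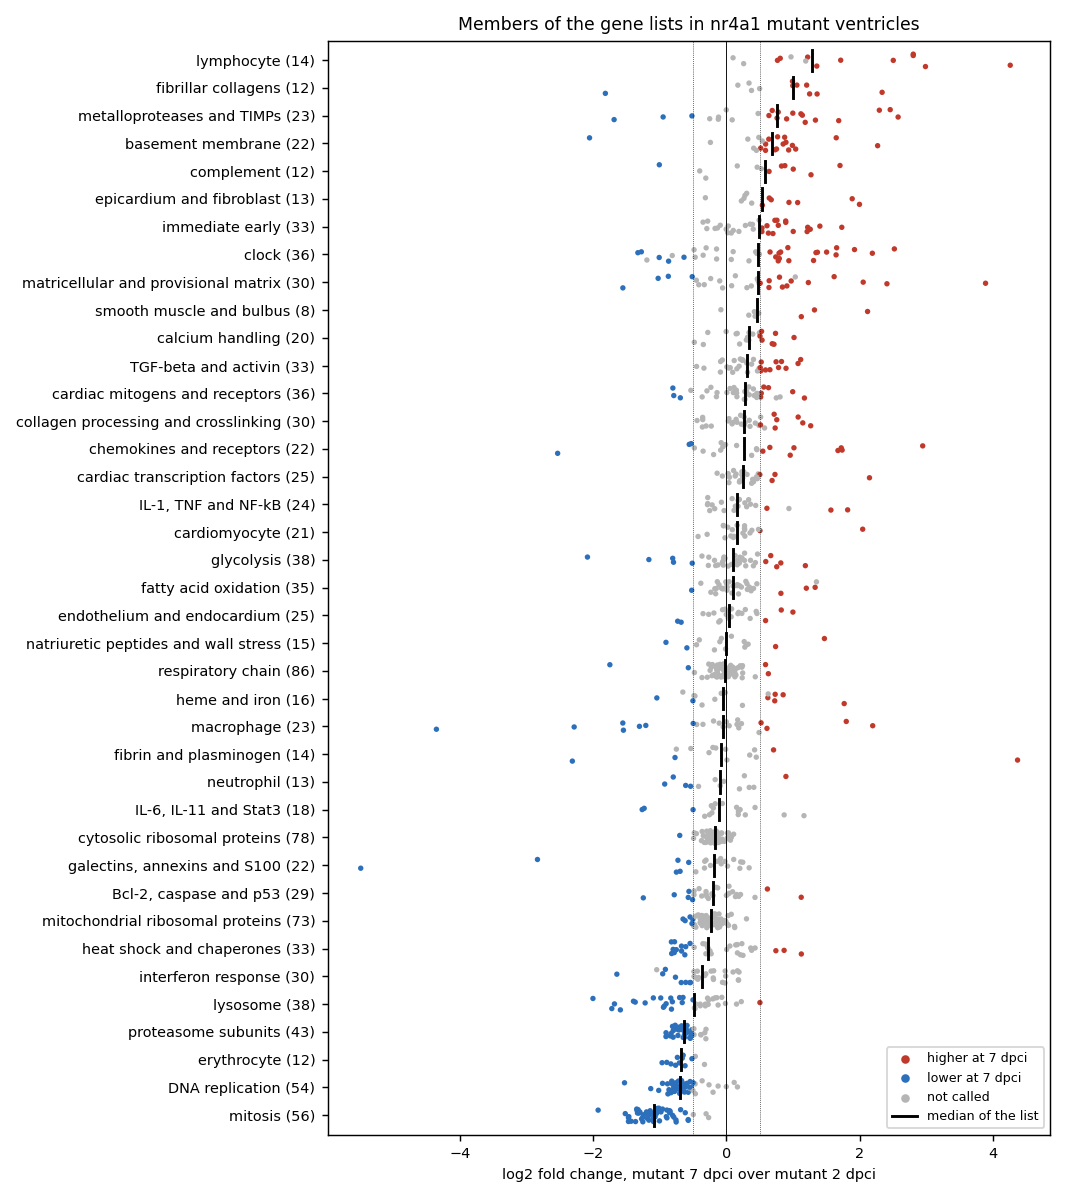
Each point is a tested gene of a list and its position on the horizontal axis is the log2 fold change of mutant 7 dpci over mutant 2 dpci, with the number of tested members after each list name. Red and blue points passed the edgeR call (higher and lower), grey points did not, dotted lines mark 0.5 and −0.5, and the black bar is the list's median, which runs from −1.09 for mitosis to 1.29 for lymphocyte genes.

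Fibrillar collagen genes, which build the scar, were mostly higher at 7 dpci. Of 12 tested fibrillar collagen genes (of 16 listed), 7 rose and 1 fell, with a median log2 fold change of 0.99. The gene that fell passed the count filter through the 2 dpci libraries alone. No gene of the list was lower in DESeq2, or without 2 dpci replicate 2, 7 dpci replicate 1 or 7 dpci replicate 2. col1a2, a chain of type I collagen and a main component of the scar, had 2005 and 2068 CPM at 7 dpci, against 838 and 876 CPM at 2 dpci (log2 fold change 1.25 ± 0.031 (SE), edgeR adjusted p = 4.94e-43). col1a1a and col1a1b, which encode the other type I chain, had 2079 and 2074 CPM at 7 dpci, against 978 and 1017 CPM at 2 dpci, and 2431 and 2473 CPM at 7 dpci, against 1202 and 1256 CPM at 2 dpci (log2 fold changes 1.06 and 1.00). In all 3 genes every 7 dpci library was above every 2 dpci library, although reads of the 2 col1a1 copies may be shared, as the handling of reads with several alignments is not given. col11a1b, a minor chain that sets the diameter of collagen fibrils, changed most, with 187 and 193 CPM at 7 dpci, against 35.9 and 39.1 CPM at 2 dpci (log2 fold change 2.34 ± 0.059 (SE), edgeR adjusted p = 6.83e-43). col11a1a (log2 fold change 1.36) and col2a1b, a chain of type II collagen (1.205), rose too.

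Matricellular and provisional matrix genes split. Of 30 tested, 12 rose and 4 fell, with a median of 0.47. postnb, periostin b, a secreted protein of activated fibroblasts, had 909 and 925 CPM at 7 dpci, against 62.7 and 60.9 CPM at 2 dpci, a 14.9-fold difference with no overlap (log2 fold change 3.89 ± 0.047 (SE), edgeR adjusted p = 2.96e-61). The thrombospondins thbs4b and thbs4a, glycoproteins that bind matrix, had 19.9 and 16.9 CPM at 7 dpci, against 4.04 and 2.97 CPM at 2 dpci, and 14.6 and 12.8 CPM at 7 dpci, against 4.1 and 4.8 CPM at 2 dpci (log2 fold changes 2.41 and 1.62). col12a1a, a collagen that coats fibrils and is known from regenerating zebrafish tissues, had 902 and 913 CPM at 7 dpci, against 515 and 529.6 CPM at 2 dpci (log2 fold change 0.80 ± 0.035 (SE), edgeR adjusted p = 1.74e-29). The fibronectin genes, part of the early provisional matrix, were already abundant at 2 dpci and did not pass the call. fn1a had 1184 and 1162 CPM at 7 dpci, against 1183 and 1259.5 CPM at 2 dpci (log2 fold change −0.059) and fn1b had 2928 and 2884 CPM at 7 dpci, against 2076 and 2100.3 CPM at 2 dpci (0.48). vcanb, a versican proteoglycan, fell, with 39.7 and 42 CPM at 7 dpci, against 117 and 123 CPM at 2 dpci (log2 fold change −1.56).

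Basement membrane genes rose widely. Of 22 tested, 15 rose and 1 fell, with a median log2 fold change of 0.68. Of the 15, 1 passed the count filter through the 7 dpci libraries alone. lamb1a, a laminin beta chain, had 166 and 169 CPM at 7 dpci, against 85.1 and 77.7 CPM at 2 dpci (log2 fold change 1.04 ± 0.048 (SE), edgeR adjusted p = 1.47e-28). The nidogens nid1b and nid2a, which link laminin to collagen IV networks, had log2 fold changes of 0.93 and 0.89, and lamc1 and lamb2 of 0.64 and 0.59.

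Matrix proteases were mostly higher as well. Of 23 tested metalloproteases and inhibitors, 14 rose and 3 fell (median 0.76). mmp2, a gelatinase, had 396 and 393 CPM at 7 dpci, against 158 and 154 CPM at 2 dpci (log2 fold change 1.34 ± 0.039 (SE), edgeR adjusted p = 2.38e-39), and mmp14a, the membrane protease that activates pro-MMP2 in mammals, had 89.2 and 86.4 CPM at 7 dpci, against 42.3 and 45.6 CPM at 2 dpci (log2 fold change 1.00). mmp15a, a related membrane protease, changed by 1.14. mmp11a, 1 of the 14 that rose, passed the count filter through the 7 dpci libraries alone, so its rise is a description. It had 14 and 19 counts at 7 dpci, against 4 and 3 counts at 2 dpci (log2 fold change 2.297). Against these, adam8a, a sheddase of myeloid cells, had 126 and 117 CPM at 7 dpci, against 403 and 383 CPM at 2 dpci (log2 fold change −1.69), and timp2b, a metalloprotease inhibitor, had 192 and 198 CPM at 7 dpci, against 389 and 366 CPM at 2 dpci (−0.95). In both falling genes the 7 dpci libraries lay below both 2 dpci libraries.

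Of 30 collagen processing and cross-linking genes tested, 7 rose and 0 fell (median 0.27). The 7 are 23.3% of the list, while 2156 of all 17310 tested genes were called higher and 23.5% were called in either direction. Under scaling by library totals 5 rose and 1 fell. loxa and loxl2b, lysyl oxidases that cross-link collagen and elastin, had 15 and 14.1 CPM at 7 dpci, against 6.06 and 6.03 CPM at 2 dpci, and 76.9 and 78.4 CPM at 7 dpci, against 36.4 and 33.8 CPM at 2 dpci (log2 fold changes 1.27 ± 0.15 and 1.15 ± 0.063, SE). pcolcea, which speeds the trimming of procollagen, rose by 1.08 and serpinh1b, the collagen chaperone, by 0.76. The endoplasmic reticulum enzyme p4hb did not pass the call, at −0.31.

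Genes of the TGF-beta and activin pathway, which drives matrix production in fibroblasts, showed smaller gains. Of 33 tested, 11 rose and 0 fell (median 0.30). tgfb5 had 25.4 and 28.2 CPM at 7 dpci, against 12.2 and 12.5 CPM at 2 dpci (log2 fold change 1.11 ± 0.10 (SE), edgeR adjusted p = 3.25e-15). The activin subunits inhbb and inhbaa had log2 fold changes of 1.08 and 0.83, and smad6a, an inhibitory Smad, of 0.89. tgfb2 rose by 0.52, a call lost without 2 dpci replicate 1 or 7 dpci replicate 2 (0.45 and 0.46).

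Markers of epicardium and fibroblasts were higher together with the matrix genes. Of 13 listed and tested, 7 rose and 0 fell, with a median log2 fold change of 0.54. Their summed level was 2805 and 2778 CPM at 7 dpci, against 2075 and 2032 CPM at 2 dpci, and none of the 13 was at 0. In bulk libraries fewer cells of a type and less RNA per cell cannot be told apart, and the part of cell numbers in the matrix gain was not tested. lum and dcn, leucine-rich proteoglycans of fibroblasts, had 63.8 and 62.2 CPM at 7 dpci, against 16.7 and 17.3 CPM at 2 dpci, and 627 and 634 CPM at 7 dpci, against 308 and 293 CPM at 2 dpci (log2 fold changes 1.89 ± 0.084 and 1.07 ± 0.034, SE). tcf21, the epicardial transcription factor, had 57.9 and 50.2 CPM at 7 dpci, against 33.8 and 34.2 CPM at 2 dpci (log2 fold change 0.67), and wt1b, which marks activated epicardium, had 30.1 and 33.1 CPM at 7 dpci, against 17.4 and 15.5 CPM at 2 dpci (0.94). aldh1a2, which makes retinoic acid in epicardium and endocardium, had 381 and 382 CPM at 7 dpci, against 479 and 471 CPM at 2 dpci, and its change of −0.32 did not pass the call.

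Several of the largest single gains encode secreted proteins. Among named genes averaging at least 10 CPM at a stage, the leading rises by fold were those of F13A1, with 25.8 and 25.1 CPM at 7 dpci, against 1.79 and 0.593 CPM at 2 dpci (log2 fold change 4.46 ± 0.18 (SE), edgeR adjusted p = 5.76e-31), and of f13a1a.1, with 732 and 738 CPM at 7 dpci, against 37.6 and 33.5 CPM at 2 dpci (log2 fold change 4.37 ± 0.045 (SE), edgeR adjusted p = 1.48e-65). Factor XIII A cross-links fibrin and is made by macrophages and platelets in mammals, and whether both symbols share reads was not checked. The 2 dpci value of F13A1 rests on few reads, and its log2 fold change was 5.37 without 2 dpci replicate 1 and 3.79 without 2 dpci replicate 2, which moves its rank, against 4.26 to 4.42 for f13a1a.1 when any 1 library was left out. itgbl1, an integrin-beta-like secreted protein, had 17.2 and 17.4 CPM at 7 dpci, against 1.1 and 1.04 CPM at 2 dpci (log2 fold change 4.01). cilp2, a cartilage intermediate layer protein, col8a1b, a short-chain collagen, and adamtsl2, a protein bound to microfibrils, had log2 fold changes of 3.401, 2.91 and 2.46. mfap2, a component of elastic microfibrils, had 43.6 and 40.3 CPM at 7 dpci, against 8.78 and 8.61 CPM at 2 dpci (log2 fold change 2.27). adh8a, an alcohol dehydrogenase, had 58.5 and 57.5 CPM at 7 dpci, against 12 and 11.3 CPM at 2 dpci (2.32). The ranking took only genes in which both 7 dpci libraries were above both 2 dpci libraries, so this holds for these 8 genes by selection. It passed over 4 higher genes known only by a clone name.

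**Figure D2:**
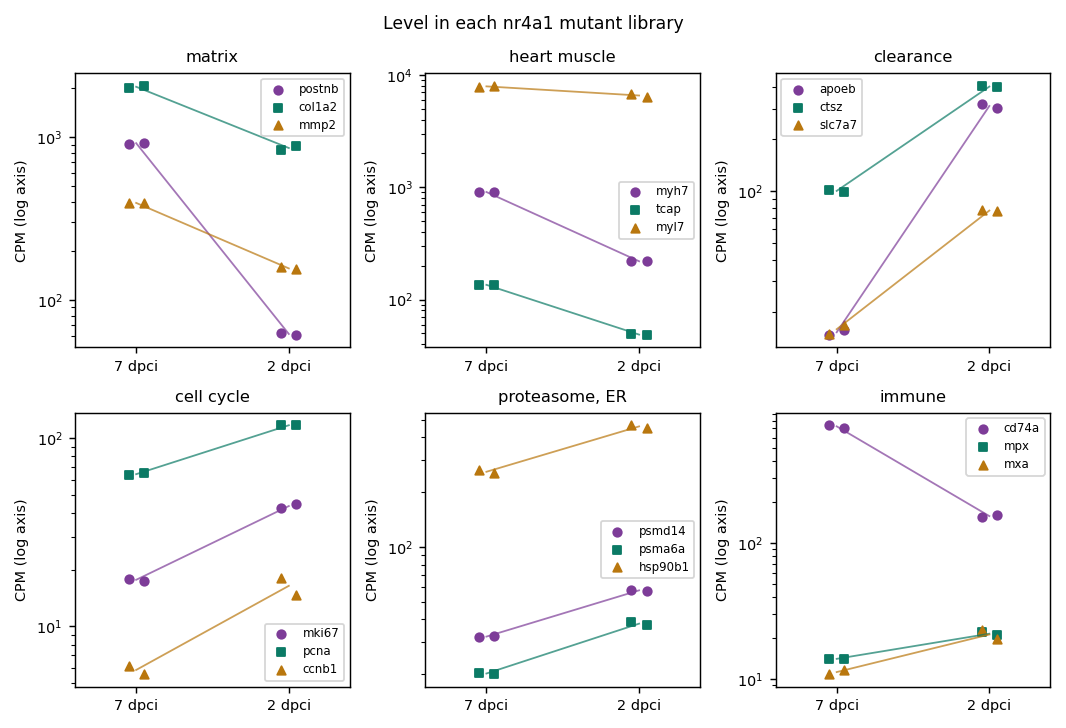
CPM on a log axis of 18 genes in the 4 mutant libraries, in 6 panels by function, with both 7 dpci libraries on the left and both 2 dpci libraries on the right of each panel and lines joining the means of a stage. postnb had 909 and 925 CPM at 7 dpci, against 62.7 and 60.9 CPM at 2 dpci, apoeb was lower at 7 dpci by more than any other gene shown, and the libraries of a stage lay close together.

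The largest losses included genes known from phagocytes and lipid transport. apoeb, an apolipoprotein E that macrophages secrete and that marks microglia in zebrafish, had 14.6 and 15.7 CPM at 7 dpci, against 318 and 304 CPM at 2 dpci (log2 fold change −4.36 ± 0.060 (SE), edgeR adjusted p = 7.56e-58). apoc1, another apolipoprotein gene, had 8 and 2 counts at 7 dpci, against 240 and 237 counts at 2 dpci, and fabp7b, a fatty acid binding protein, had 10 and 6 counts at 7 dpci, against 257 and 318 counts at 2 dpci. lgals2b, a galectin, had 6 and 4 counts at 7 dpci, against 232 and 258 counts at 2 dpci. In these genes the 7 dpci libraries were close to 0 and both 2 dpci libraries held more than 100 counts, so their fitted log2 fold changes of −5.46, −5.06 and −5.497 rest on few reads at 7 dpci. That of apoc1 was −6.62 without 7 dpci replicate 1. Both apoc1 and lgals2b passed the count filter through the 2 dpci libraries alone, so their falls are a description. cd9b, a tetraspanin, had 11.3 and 11.3 CPM at 7 dpci, against 110.4 and 111 CPM at 2 dpci (log2 fold change −3.29), and lgals9l1, a galectin 9 type lectin, had 12.8 and 13.5 CPM at 7 dpci, against 100.1 and 88 CPM at 2 dpci (−2.84). slc7a7 and slc43a2b, amino acid transporters of which the first marks the macrophage lineage in zebrafish, had log2 fold changes of −2.29 and −2.48. ccr12b.2, a chemokine receptor, had 5.76 and 5.81 CPM at 7 dpci, against 36.5 and 30.9 CPM at 2 dpci (log2 fold change −2.54), and pigrl2.3, a receptor of the polymeric immunoglobulin receptor type, and illr1, a lectin-type receptor, had log2 fold changes of −2.78 and −2.67. plaua, a urokinase-type plasminogen activator, had 7.86 and 6.07 CPM at 7 dpci, against 33.7 and 36.4 CPM at 2 dpci (−2.32). Passed over here were 7 lower genes with a clone name.

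Lysosomal genes with a call were nearly all lower. Of 38 tested, 1 rose and 19 fell, with a median of −0.49, and their summed level was 3459.7 and 3428 CPM at 7 dpci, against 6948 and 6758 CPM at 2 dpci. The cathepsins, proteases that digest engulfed material, led. ctsz had 102 and 98.7 CPM at 7 dpci, against 408 and 398 CPM at 2 dpci (log2 fold change −2.01 ± 0.043 (SE), edgeR adjusted p = 1.02e-46). ctsla had 239.8 and 235 CPM at 7 dpci, against 805 and 763 CPM at 2 dpci, ctsba had 173 and 178 CPM at 7 dpci, against 573 and 554 CPM at 2 dpci, and ctsd had 195 and 206 CPM at 7 dpci, against 609 and 602 CPM at 2 dpci (log2 fold changes −1.72, −1.68 and −1.595). psap, the saposin precursor needed for sphingolipid breakdown, had 578 and 591 CPM at 7 dpci, against 1249.5 and 1255 CPM at 2 dpci (−1.099). Each of the 5 was at 2 dpci more than 2-fold its level at 7 dpci.

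Macrophage markers did not move as a block. Of 23 tested of 24 listed, 4 rose and 7 fell, the median was −0.050, and the summed level was 2207 and 2169.6 CPM at 7 dpci, against 2748 and 2711 CPM at 2 dpci. The falling genes apoeb, lgmn and ctss2.1 and the rising cd74a (743 and 709 CPM at 7 dpci, against 156 and 161 CPM at 2 dpci) moved this sum in opposite directions. The pan-macrophage gene mpeg1.1, a perforin, had 111 and 106 CPM at 7 dpci, against 106 and 111 CPM at 2 dpci (log2 fold change −0.0024, not called), and itgb2, the beta chain of leukocyte integrins, had 137 and 138 CPM at 7 dpci, against 163 and 153 CPM at 2 dpci (−0.20). lgmn, a lysosomal protease, had 340.2 and 327 CPM at 7 dpci, against 781 and 766 CPM at 2 dpci (log2 fold change −1.21), and ctss2.1, a cathepsin S, had 130.5 and 136 CPM at 7 dpci, against 399 and 385 CPM at 2 dpci (−1.56). irf8, the transcription factor required for macrophage development, rose slightly, with 42.3 and 41.1 CPM at 7 dpci, against 27.9 and 30.2 CPM at 2 dpci (log2 fold change 0.52 ± 0.077 (SE), edgeR adjusted p = 5.03e-08), and was below the fold threshold under scaling by library totals (0.43) and without 2 dpci replicate 1 or 7 dpci replicate 1 (0.43 and 0.47). cd74a, the invariant chain that escorts MHC class II molecules, was the largest rise of the list, with 743 and 709 CPM at 7 dpci, against 156 and 161 CPM at 2 dpci (log2 fold change 2.197 ± 0.037 (SE), edgeR adjusted p = 7.96e-53), and mhc2b, an MHC class II gene, had 9.66 and 10.6 CPM at 7 dpci, against 3.87 and 4.8 CPM at 2 dpci (1.21). MHC genes are multicopy, so a level of one symbol is uncertain.

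Neutrophil markers with a call were mostly lower. Of 13 tested, 1 rose and 4 fell, with a median of −0.094 and a summed level of 252 and 252 CPM at 7 dpci, against 248 and 253 CPM at 2 dpci, and none was at 0. mpx, the myeloperoxidase of neutrophil granules, had 14 and 14 CPM at 7 dpci, against 22.1 and 20.9 CPM at 2 dpci (log2 fold change −0.61 ± 0.12 (SE), edgeR adjusted p = 8.94e-06), and mmp13a, a collagenase, had 11.2 and 11.8 CPM at 7 dpci, against 20.8 and 22.8 CPM at 2 dpci (log2 fold change −0.93). ncf1, a cytosolic subunit of the NADPH oxidase, rose by 0.89. The membrane subunits cybb and cyba did not pass the call (0.34 and −0.042).

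Lymphocyte markers were higher, on few reads. Of 14 tested of 19 listed, 10 rose and 0 fell, with a median of 1.29, and the summed level was 35.8 and 34.6 CPM at 7 dpci, against 13.6 and 14 CPM at 2 dpci. Of the 14, 6 passed the count filter through the 7 dpci libraries alone, 4 of them called, so the count and the median are a description. Of the 5 listed genes that were not tested, cd8a, rag1, rag2 and ccr7 had up to 10 counts in any of the 4 libraries, and nkl.2 was not in the table. The B cell genes cd79a and cd79b, chosen after their values were seen, encode the signalling chains of the B cell receptor. cd79a had 69 and 63 counts at 7 dpci, against 7 and 13 counts at 2 dpci, and cd79b had 48 and 43 counts at 7 dpci, against 6 and 6 counts at 2 dpci (log2 fold changes 2.81 ± 0.41 and 2.99 ± 0.48, SE). cd37, a tetraspanin of B cells, had 115 and 91 counts at 7 dpci, against 18 and 13 counts at 2 dpci (log2 fold change 2.81). Also chosen after their values were seen were lck, a kinase of T cells, with 30 and 29 counts at 7 dpci, against 10 and 17 counts at 2 dpci, and nkl.3, a NK-lysin of cytotoxic cells, with 31 and 27 counts at 7 dpci, against 0 and 3 counts at 2 dpci. cd4-1, a T helper cell marker, rose by 0.77. The calls of lck and cd4-1 each depended on single libraries: lck was lost without 2 dpci replicate 1 or 7 dpci replicate 2 (log2 fold changes 0.96 and 1.06), and cd4-1 without 2 dpci replicate 2 or 7 dpci replicate 1 (0.60 and 0.61). Both 7 dpci libraries were above both 2 dpci libraries in each of these 6 genes, as in 35.6% of all tested genes. For cd79a, cd79b, lck and nkl.3, chosen after their values were seen, this is a description. Of these, cd79b and nkl.3 passed the count filter through the 7 dpci libraries alone.

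Among inflammatory signals, the IL-1, TNF and NF-kB list had 3 of 24 tested genes higher and 0 lower (median 0.17). The 3 are 12.5% of the list, and 12.5% of all tested genes were called higher. il1b had 21.5 and 25.3 CPM at 7 dpci, against 21.5 and 21 CPM at 2 dpci (change of 0.13 on the log2 scale, edgeR adjusted p = 0.328), and acod1, which makes itaconate in activated macrophages, had 21.4 and 22.3 CPM at 7 dpci, against 21 and 17.9 CPM at 2 dpci (0.17, edgeR adjusted p = 0.242). Neither passed the test. tnfa passed the count filter through the 7 dpci libraries alone and was called higher on few reads, with 22 and 15 counts at 7 dpci, against 9 and 4 counts at 2 dpci (log2 fold change 1.57 ± 0.59 (SE), edgeR adjusted p = 0.025). That call was lost in DESeq2 (log2 fold change 1.56), and without 2 dpci replicate 2, 7 dpci replicate 1 or 7 dpci replicate 2 (0.97 to 1.65). Its receptor gene tnfrsf1b had 24.8 and 24.5 CPM at 7 dpci, against 29.5 and 30.5 CPM at 2 dpci (log2 fold change −0.28, not called). ptgs2a, a prostaglandin synthase, rose, with 50.7 and 48.8 CPM at 7 dpci, against 33.8 and 31.7 CPM at 2 dpci (0.61).

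The IL-6, IL-11 and Stat3 list had 0 higher and 3 lower genes of 18 tested (median −0.12). il11a, a cytokine with a known role in zebrafish heart regeneration, had 14.5 and 14.4 CPM at 7 dpci, against 20.3 and 20.6 CPM at 2 dpci (log2 fold change −0.50 ± 0.13 (SE), edgeR adjusted p = 0.000791), just past the fold threshold, which it missed in DESeq2. socs3a, a feedback inhibitor of Stat3, was abundant and had 901 and 906 CPM at 7 dpci, against 674 and 668 CPM at 2 dpci (0.43, not called).

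More chemokine and receptor genes rose than fell. Of 22 tested, 8 rose and 3 fell (median 0.26), and 5 rose without 2 dpci replicate 2. Of the 8, 1 passed the count filter through the 7 dpci libraries alone. ccl35.1 had 13.7 and 11.5 CPM at 7 dpci, against 3.98 and 3.61 CPM at 2 dpci (log2 fold change 1.74), the receptor ccr9a had 36.5 and 41.3 CPM at 7 dpci, against 12 and 12.3 CPM at 2 dpci (1.67), and cxcr4b, the receptor of Cxcl12 that guides leukocytes, had 57.5 and 57.4 CPM at 7 dpci, against 30.4 and 28.9 CPM at 2 dpci (0.96). cxcl18b, a neutrophil attractant of zebrafish, fell, with 75.3 and 76.6 CPM at 7 dpci, against 110.1 and 109 CPM at 2 dpci (−0.53). cxcl12a, made by the epicardium, had 96 and 87.8 CPM at 7 dpci, against 71 and 63.9 CPM at 2 dpci and did not pass the call (0.45).

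Calls among interferon response genes were all lower, with 0 of 30 tested higher and 8 lower (median −0.37). The 8 are 26.7% of the list, while 1916 of all 17310 tested genes were called lower and 23.5% were called in either direction. Without 2 dpci replicate 2, and under scaling by library totals, 13 were lower. mxa and mxe, antiviral dynamin-like GTPases, had 10.8 and 11.6 CPM at 7 dpci, against 22.9 and 19.5 CPM at 2 dpci, and 6.94 and 5.12 CPM at 7 dpci, against 11.3 and 9.55 CPM at 2 dpci (log2 fold changes −0.92 ± 0.12 and −0.77 ± 0.16, SE). gbp1, a guanylate-binding protein, had 41.5 and 38.4 CPM at 7 dpci, against 81.8 and 74 CPM at 2 dpci (−0.96), and psmb10, an immunoproteasome subunit, had 32.7 and 34.8 CPM at 7 dpci, against 50.7 and 52.2 CPM at 2 dpci (−0.61). The immunoproteasome subunits of this list, psmb10 among them, are also members of the proteasome list, in which 36 of 43 fell. b2m, the light chain of MHC class I, had 708 and 718 CPM at 7 dpci, against 763 and 724 CPM at 2 dpci and stayed at −0.061, without a call.

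Complement genes rose in 6 of 12 tested, with 1 lower (median 0.58). c4 and c4b, components of the classical pathway, had 522 and 512 CPM at 7 dpci, against 209.7 and 219 CPM at 2 dpci, and 494 and 493 CPM at 7 dpci, against 250.2 and 243 CPM at 2 dpci (log2 fold changes 1.27 ± 0.037 and 1.003 ± 0.037, SE). c6, part of the membrane attack complex, had 1157 and 1156 CPM at 7 dpci, against 759 and 726 CPM at 2 dpci (0.64), and cfd, a serine protease of the alternative pathway, had 112 and 116 CPM at 7 dpci, against 64.8 and 59.5 CPM at 2 dpci (0.88). In the galectin, annexin and S100 list, 6 of 22 genes fell and 0 rose (median −0.19). The 6 are 27.3% of the list, while 1916 of all 17310 tested genes were called lower and 23.5% were called in either direction. Of the 6, lgals2b passed the count filter through the 2 dpci libraries alone. anxa6 and s100a10b, calcium-dependent membrane proteins, had log2 fold changes of −0.75 and −0.57. The most abundant member, anxa2a, had 1939 and 1978 CPM at 7 dpci, against 2710.4 and 2679.5 CPM at 2 dpci, and its change of −0.46 missed the fold threshold, which it passed without 7 dpci replicate 2 (−0.51).

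Iron and clotting genes were mixed. Of 16 heme and iron genes tested, 5 rose and 2 fell. tfa, transferrin, had 356 and 351 CPM at 7 dpci, against 106 and 101 CPM at 2 dpci (log2 fold change 1.77 ± 0.045 (SE), edgeR adjusted p = 1.73e-42), and slc40a1, the iron exporter ferroportin, had 71.6 and 71.3 CPM at 7 dpci, against 39.6 and 46.5 CPM at 2 dpci (0.73). steap4, a ferric reductase, rose by 0.85. fth1a, a ferritin heavy chain, was abundant and did not pass the call (−0.37). Of 14 fibrin and plasminogen genes tested, 2 rose, f13a1a.1 and the tissue factor gene f3b (0.71), and 2 fell, plaua and f5 (−0.77).

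Red blood cell genes fell. Of 12 tested, 0 rose and 10 fell, with a median of −0.69 and a summed level of 1943 and 1951 CPM at 7 dpci, against 3102 and 3153 CPM at 2 dpci, and none was at 0. The alpha globin gene hbaa1 had 933 and 946 CPM at 7 dpci, against 1509 and 1559.6 CPM at 2 dpci and the beta globin gene hbba1 had 698 and 693 CPM at 7 dpci, against 1086 and 1099 CPM at 2 dpci (log2 fold changes −0.71 and −0.65). The globin copies are near-identical, so their levels are uncertain one by one. epb41b, of the red cell membrane skeleton, and urod, of heme synthesis, fell by 0.84 and 0.74 on the log2 scale. How much blood each sample held was not tested.

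Heart muscle genes changed little as a list. Of 21 tested cardiomyocyte markers, 2 rose and 0 fell, with a median of 0.16 and a summed level of 52906 and 53322 CPM at 7 dpci, against 47554 and 46883 CPM at 2 dpci. The myosin light chain myl7 had 7781 and 7997 CPM at 7 dpci, against 6764 and 6316 CPM at 2 dpci (log2 fold change 0.27, not called). The exception was myh7, a slow myosin heavy chain, with 905 and 907 CPM at 7 dpci, against 219.8 and 219 CPM at 2 dpci, a 4.13-fold difference without overlap (log2 fold change 2.05 ± 0.035 (SE), edgeR adjusted p = 8.63e-53). myh6, the heavy chain of the atrium in zebrafish, rose by 0.50, just past the threshold, and was below it under scaling by library totals (0.42) and when any 1 of the 4 libraries was left out (0.45 to 0.49).

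In the wall stress list, 2 of 15 genes rose and 2 fell. tcap, the telethonin of the Z-disc, had 136 and 135 CPM at 7 dpci, against 49.2 and 48.4 CPM at 2 dpci (log2 fold change 1.47 ± 0.048 (SE), edgeR adjusted p = 2.22e-36). nppb, a natriuretic peptide gene induced by stretch, had 290.5 and 303 CPM at 7 dpci, against 456 and 439.9 CPM at 2 dpci (log2 fold change −0.60 ± 0.037 (SE), edgeR adjusted p = 6.93e-22), and ankrd1a, a stress-induced Z-disc protein, had 17.4 and 17.2 CPM at 7 dpci, against 32.7 and 32.3 CPM at 2 dpci (−0.91). nppa, the other natriuretic peptide gene, had 2554 and 2580.0 CPM at 7 dpci, against 2783 and 2630.3 CPM at 2 dpci (−0.076, not called).

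Calcium handling genes rose in 7 of 20 tested and fell in 0 (median 0.34), with 4 higher and 1 lower under scaling by library totals. jph2, which couples the surface membrane to the sarcoplasmic reticulum, had 89.3 and 93.1 CPM at 7 dpci, against 52.4 and 56.8 CPM at 2 dpci (0.74), and pln, phospholamban, the inhibitor of the calcium pump, had 1974 and 1953 CPM at 7 dpci, against 1415 and 1311 CPM at 2 dpci (0.53), a call lost without 2 dpci replicate 2 or 7 dpci replicate 1 (0.44 and 0.49). atp2a2a, the pump, had 3664 and 3645 CPM at 7 dpci, against 2573 and 2619 CPM at 2 dpci and missed the threshold at 0.49. Of 25 cardiac transcription factors, 4 rose and 0 fell, among them tbx20 (0.69), gata5 (0.50) and mycn (0.73). That is 16% of the list, against 12.5% of all tested genes called higher and 23.5% called in either direction. Of the 4, 1 passed the count filter through the 7 dpci libraries alone. Without 2 dpci replicate 1 only 1 gene of the list was called higher, and mycn changed by 0.45 and gata5 by 0.495. gata5 was not called without 2 dpci replicate 2 or 7 dpci replicate 1 either (0.44 and 0.43).

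Vessel genes were mixed. Of 25 tested endothelial and endocardial markers, 3 rose and 2 fell, with a median of 0.032 that turned to −0.054 under scaling by library totals and to −0.0066 without 7 dpci replicate 1, and a summed level of 2267 and 2248 CPM at 7 dpci, against 1868 and 1888 CPM at 2 dpci. vwf, von Willebrand factor, had 436 and 430.4 CPM at 7 dpci, against 245 and 245 CPM at 2 dpci (0.82), nfatc1, an endocardial transcription factor, rose by 0.59 (0.49 without 2 dpci replicate 1, not called), plvapa, of fenestrated endothelium, by 1.00, and stab2, a scavenger receptor, fell by 0.68 on the log2 scale. Of 8 smooth muscle and bulbus genes tested, 3 rose and 0 fell. elnb, an elastin of the outflow tract, had 34.3 and 31.8 CPM at 7 dpci, against 7.51 and 7.72 CPM at 2 dpci (log2 fold change 2.12 ± 0.10 (SE), edgeR adjusted p = 3.37e-27), tagln, an actin-binding protein of smooth muscle and myofibroblasts, had 129.9 and 144 CPM at 7 dpci, against 53.4 and 55.7 CPM at 2 dpci (1.32), and myh11a, the smooth muscle myosin, had 96.6 and 93.5 CPM at 7 dpci, against 99.5 and 102 CPM at 2 dpci (−0.084, not called).

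Most genes of the cell cycle lists fell. Of 56 mitosis genes tested, 0 rose and 53 fell (94.6%, against 23.5% of all tested genes called in either direction), with a median of −1.09. Of 54 DNA replication genes, 0 rose and 43 fell (79.6%), with a median of −0.69. mki67, the proliferation marker Ki-67, had 17.9 and 17.4 CPM at 7 dpci, against 42.3 and 44.8 CPM at 2 dpci (log2 fold change −1.301 ± 0.088 (SE), edgeR adjusted p = 2.44e-20). ccnb1, the mitotic cyclin B1, had 6.17 and 5.56 CPM at 7 dpci, against 18.1 and 14.7 CPM at 2 dpci (log2 fold change −1.47), and top2a, the topoisomerase that untangles chromosomes, had 21.9 and 22 CPM at 7 dpci, against 49 and 49.7 CPM at 2 dpci (−1.17). ttk and bub1, spindle checkpoint kinases, had log2 fold changes of −1.37 and −1.35, and ncapd2, a condensin subunit, of −1.34. Among replication genes, pcna, the sliding clamp of DNA polymerase, had 63.3 and 65.3 CPM at 7 dpci, against 117 and 117 CPM at 2 dpci (log2 fold change −0.86 ± 0.055 (SE), edgeR adjusted p = 1.92e-21), and mcm5, a subunit of the replicative helicase, had 24.2 and 22.9 CPM at 7 dpci, against 41.4 and 42 CPM at 2 dpci (−0.82). lig1, DNA ligase I, fell by 0.83 on the log2 scale. In each of these genes both 7 dpci libraries were below both 2 dpci libraries, and the cell type in which they fell cannot be read from bulk libraries.

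Growth factor and receptor genes of heart regeneration had 6 higher and 3 lower members of 36 tested (16.7% and 8.33%, median 0.27). Of all tested genes 23.5% were called in either direction, a similar share. Without 7 dpci replicate 1 the counts were 3 higher and 4 lower, and under scaling by library totals 3 and 3. hbegfb, an EGF family ligand, had 16.3 and 15.4 CPM at 7 dpci, against 30.3 and 25.5 CPM at 2 dpci (−0.81), and fgfr2, an FGF receptor, had 43.7 and 41.5 CPM at 7 dpci, against 28.5 and 29.3 CPM at 2 dpci (0.56, and 0.49 without 7 dpci replicate 1, not called). notch1b, a Notch receptor of the endocardium, had 239 and 239.5 CPM at 7 dpci, against 161 and 187 CPM at 2 dpci and did not pass the call (0.46), which it did without 2 dpci replicate 2 (0.54). In the Bcl-2, caspase and p53 list, 2 genes rose and 5 fell of 29 tested (6.9% and 17.2%). This is near the share of all tested genes called in either direction, 23.5%. pmaip1 (Noxa), a pro-apoptotic BH3 protein, had 17.6 and 16.7 CPM at 7 dpci, against 8.37 and 7.47 CPM at 2 dpci (1.12), bcl2l10, a Bcl-2 relative, rose by 0.61, and caspa, an inflammatory caspase, fell, with 4.57 and 5.44 CPM at 7 dpci, against 12.9 and 10.9 CPM at 2 dpci (−1.25).

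Proteasome subunits, which assemble into the protease that degrades ubiquitin-tagged proteins, fell together. Of 43 tested, 0 rose and 36 fell (83.7%), with a median of −0.63. psma6a, a subunit of the core, fell (log2 fold change −0.91 ± 0.082 (SE), edgeR adjusted p = 5.87e-15), and psmd14, the deubiquitinase of the lid, had 31.8 and 32.4 CPM at 7 dpci, against 57.8 and 57.5 CPM at 2 dpci (log2 fold change −0.85 ± 0.069 (SE), edgeR adjusted p = 7.26e-17). Heat shock and chaperone genes had 3 higher and 11 lower members of 33 (median −0.28). hsp90b1 and pdia4, which fold proteins in the endoplasmic reticulum, had 265 and 253 CPM at 7 dpci, against 468 and 452 CPM at 2 dpci, and 61.8 and 65.3 CPM at 7 dpci, against 117 and 108 CPM at 2 dpci (log2 fold changes −0.83 ± 0.037 and −0.82 ± 0.054, SE). hsf2, a heat shock transcription factor, rose, with 25 and 23.8 CPM at 7 dpci, against 11.9 and 10.6 CPM at 2 dpci (1.12), and the abundant cytosolic chaperone hspa8 did not pass the call (−0.25).

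Ribosomal protein genes had few calls. Of 78 cytosolic ones, 0 rose and 1 fell, rpl7l1 (−0.70), with a median of −0.18. rps2, the most abundant, had 2775 and 2870.4 CPM at 7 dpci, against 2561 and 2680.4 CPM at 2 dpci (0.11). Of 73 mitochondrial ones, 0 rose and 5 fell, with a median of −0.23. These counts of lower genes moved with single libraries and with the scaling. Of the cytosolic genes, 3 fell without 2 dpci replicate 1, and 4 without 2 dpci replicate 2, without 7 dpci replicate 2 and under scaling by library totals. Of the mitochondrial genes, 12 fell without 2 dpci replicate 2, 10 without 7 dpci replicate 2, 8 without 7 dpci replicate 1 and 11 under scaling by library totals.

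Energy metabolism changed in single genes. Of 86 respiratory chain genes tested, 2 rose and 2 fell (median −0.017). The risen genes were cox4i2 (0.63, just below the threshold without 7 dpci replicate 2) and cox4i1l (0.59), forms of cytochrome oxidase subunit 4. Of 35 fatty acid genes, 3 rose and 1 fell. lpl, the lipase that frees fatty acids from lipoproteins, had 151 and 154 CPM at 7 dpci, against 60.7 and 60.2 CPM at 2 dpci (log2 fold change 1.33 ± 0.047 (SE), edgeR adjusted p = 7.17e-35). pparaa, the nuclear receptor that controls fatty acid use, had 24.4 and 24.8 CPM at 7 dpci, against 11.8 and 9.74 CPM at 2 dpci (log2 fold change 1.2), and ppargc1a, a coactivator of mitochondrial genes, had 31.3 and 35.3 CPM at 7 dpci, against 18.8 and 18.8 CPM at 2 dpci (0.82). Of 38 glycolysis genes, 5 rose and 5 fell. The hexokinase hk2 had 28.8 and 29.7 CPM at 7 dpci, against 67.5 and 63.9 CPM at 2 dpci (−1.17) and the enolase eno1b had 5.81 and 4.11 CPM at 7 dpci, against 19.9 and 22.8 CPM at 2 dpci (−2.09). gapdh, by contrast, had 8604 and 8631 CPM at 7 dpci, against 5165 and 5048 CPM at 2 dpci (0.75), while its paralog gapdhs had 439.7 and 437 CPM at 7 dpci, against 757 and 765 CPM at 2 dpci (−0.80).

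Clock genes moved, and the hour of collection is not given in the sources used here. Of 36 tested, 17 rose and 5 fell (median 0.48), with 9 lower under scaling by library totals. The repressor genes per1a and per3 had 20.1 and 21.3 CPM at 7 dpci, against 3.46 and 3.71 CPM at 2 dpci, and 154 and 155 CPM at 7 dpci, against 49.1 and 49.4 CPM at 2 dpci (log2 fold changes 2.52 ± 0.14 and 1.65 ± 0.051, SE). nr1d1, a Rev-erb nuclear receptor, had 30.7 and 31.3 CPM at 7 dpci, against 10.3 and 9.45 CPM at 2 dpci (1.66), ciarta, a repressor of the clock activators, had 22.5 and 24.5 CPM at 7 dpci, against 6.12 and 6.23 CPM at 2 dpci (1.92), and nfil3-5, a bZIP factor of the clock output family, had 13.1 and 12.3 CPM at 7 dpci, against 32.2 and 29.8 CPM at 2 dpci (−1.28). Whether time of day had a part in these or other changes was not tested.

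Immediate early genes, the family of fast-induced factors to which nr4a1 belongs, rose in 16 of 33 tested and fell in 0 (median 0.49). egr1 had 362 and 370.5 CPM at 7 dpci, against 158 and 156 CPM at 2 dpci (log2 fold change 1.22 ± 0.039 (SE), edgeR adjusted p = 2.92e-37). fosab had 301 and 309 CPM at 7 dpci, against 150.4 and 154 CPM at 2 dpci (log2 fold change 1.003), btg2, an anti-proliferative factor, had 494 and 494 CPM at 7 dpci, against 222 and 204 CPM at 2 dpci (1.21), and junbb had 429 and 430.5 CPM at 7 dpci, against 246 and 262 CPM at 2 dpci (0.76). In these 4 genes both 7 dpci libraries were above both 2 dpci libraries.

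The same interval was then set against wild type, with no library shared between the comparisons. In wild-type ventricles 2208 genes (12.8%) were higher and 1980 (11.4%) lower at 7 than at 2 dpci. Of the genes higher in the mutant, 914 were also higher in wild type (42.4% of the mutant's and 41.4% of the wild type's genes). Of those lower in the mutant, 877 were also lower in wild type (45.8% and 44.3%). Opposite calls were made for 115 genes higher in the mutant and lower in wild type and for 33 genes the other way round. The test of the difference itself, the mutant change minus the wild-type change, called 2520 genes (14.6%), of which 1284 (7.42%) had the more positive change in the mutant and 1236 (7.14%) the more positive change in wild type. Of the 4072 genes called in the mutant, 1073 were among them.

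**Figure D3:**
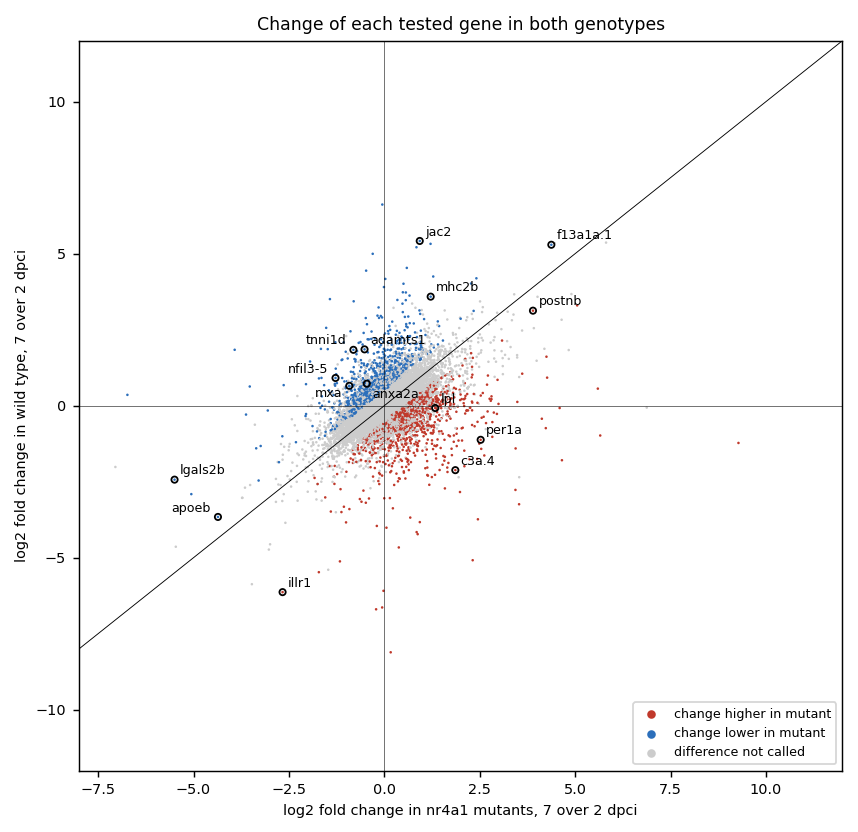
Each point is 1 of 17310 tested genes, with its log2 fold change of 7 over 2 dpci in nr4a1 mutants on the horizontal axis and in wild type on the vertical axis, and the diagonal marks equal change. Red and blue points passed the edgeR test of the difference (change more positive, or more negative, in the mutant), grey points did not, and 15 genes are circled and named.

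Called differences in the matrix lists were mostly more negative in the mutant. The matricellular list had 3 genes with a more positive and 13 with a more negative change in the mutant, of 30 tested. Its medians were 0.47 in the mutant and 0.85 in wild type. The other matrix lists had fewer, with 0 and 1 of 12 fibrillar collagen genes and 1 and 1 of 22 basement membrane genes. Metalloproteases and inhibitors had 1 and 3 of 23, and collagen processing genes 0 and 5 of 30. Of all tested genes, 14.6% were called in either direction. postnb changed more in the mutant (3.89 against 3.12, difference 0.77 ± 0.064 (SE), edgeR adjusted p = 1.47e-15), while f13a1a.1 changed less (4.37 against 5.29, difference −0.92 ± 0.068 (SE), edgeR adjusted p = 1.26e-17), as did col11a1b (2.34 against 3.12) and thbs4b (2.41 against 4.19). For col1a2 the changes were 1.25 in the mutant and 1.37 in wild type, and the difference of −0.12 was not called. adamts1, a matrix protease, fell in the mutant and rose in wild type (−0.52 against 1.85, difference −2.37 ± 0.13 (SE), edgeR adjusted p = 4.48e-23). The loss of apoeb was larger in the mutant (−4.36 against −3.66, difference −0.70 ± 0.093 (SE), edgeR adjusted p = 9.88e-09).

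Neutrophil genes differed in one direction, with 7 of 13 changing more positively in the mutant and 0 more negatively. The medians were −0.094 in the mutant and −0.63 in wild type, and the summed level in wild type was 141 and 135 CPM at 7 dpci, against 219 and 199.8 CPM at 2 dpci. mpx had in wild type 6.41 and 5.98 CPM at 7 dpci, against 22.9 and 19.7 CPM at 2 dpci, so its change was −0.61 in the mutant and −1.78 in wild type (difference 1.17 ± 0.18 (SE), edgeR adjusted p = 2.17e-07). In uninjured ventricles, at 0 dpci, mpx averaged 17.8 ± 0.261 CPM (± SD) in the mutant and 4.18 ± 0.55 CPM in wild type. Whether this offset before injury had a part in the difference was not tested. Interferon genes differed the other way, with 0 more positive and 7 more negative of 30, and medians of −0.37 and 0.080. mxa in wild type had 17.2 and 17 CPM at 7 dpci, against 11.3 and 10.5 CPM at 2 dpci, a rise where the mutant had a fall (difference −1.57 ± 0.17 (SE), edgeR adjusted p = 3.35e-11).

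**Figure D4:**
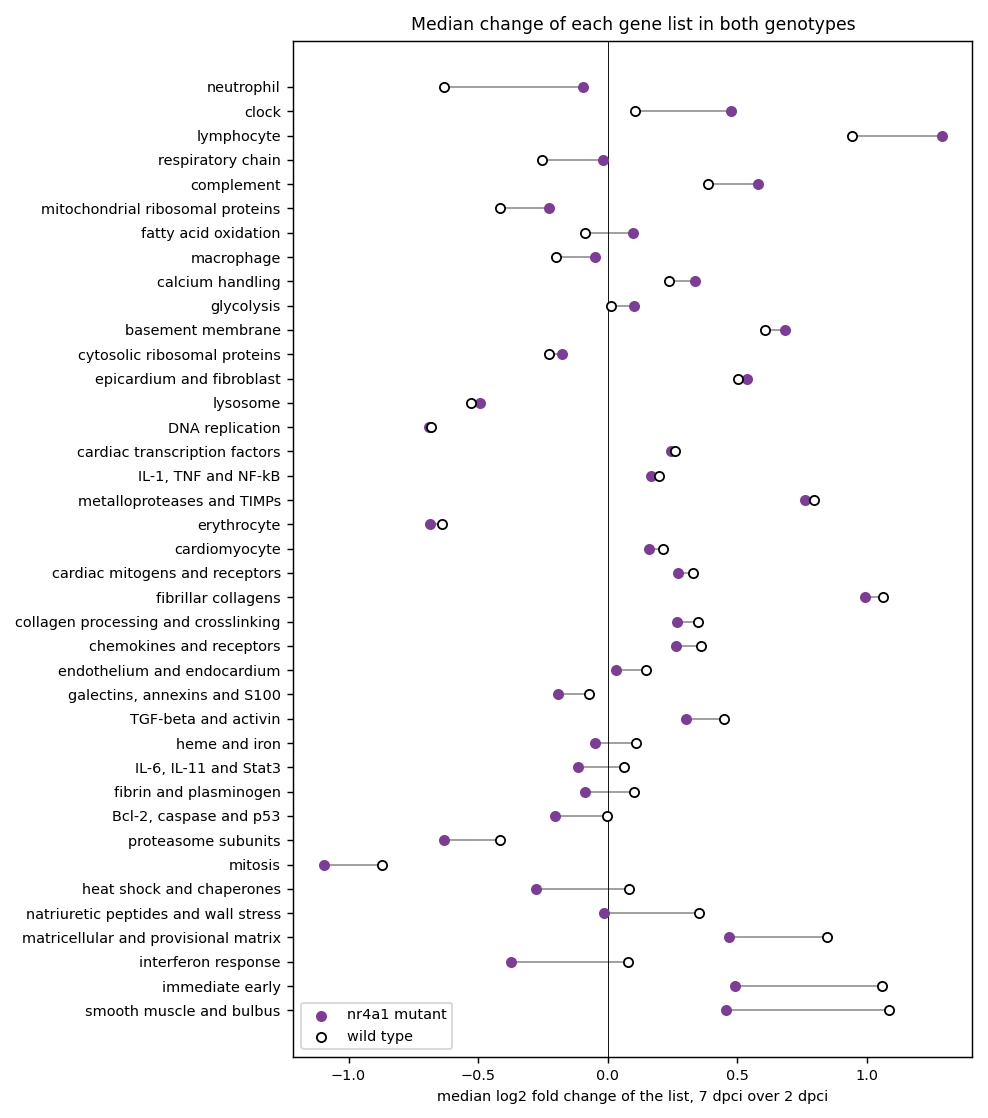
Median log2 fold change of 7 over 2 dpci for each gene list in nr4a1 mutants (filled) and wild type (open), ordered by the difference between them. Neutrophil, clock and lymphocyte genes lie furthest to the mutant's higher side, and smooth muscle, immediate early and interferon genes furthest to the other side. The count filter was set on mutant libraries, and 6 of 14 lymphocyte genes passed it through mutant 7 dpci alone. The place of the lymphocyte list is therefore a description.

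Immediate early genes differed mostly in one direction, with 2 more positive and 19 more negative of 33 and medians of 0.49 in the mutant and 1.06 in wild type. fosab changed by 1.003 in the mutant and by 1.79 in wild type, and junbb by 0.76 and 1.68. nr4a1 itself changed by 0.70 in the mutant and 1.33 in wild type (difference −0.63 ± 0.065 (SE), edgeR adjusted p = 4.08e-12). Clock genes had 16 more positive and 9 more negative changes of 36. per1a in wild type had 1.19 and 0.885 CPM at 7 dpci, against 1.95 and 2.47 CPM at 2 dpci, the reverse of the mutant (difference 3.65 ± 0.30 (SE), edgeR adjusted p = 1.12e-15). The cell cycle lists fell in both genotypes, with mitosis medians of −1.09 in the mutant and −0.87 in wild type and replication medians of −0.69 and −0.68. Proteasome subunits had medians of −0.63 in the mutant, with 36 lower, and −0.42 in wild type, with 14 lower, while the test of the difference called 0 more positive and 2 more negative of 43, against 14.6% of all tested genes called in either direction.

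**Figure D5:**
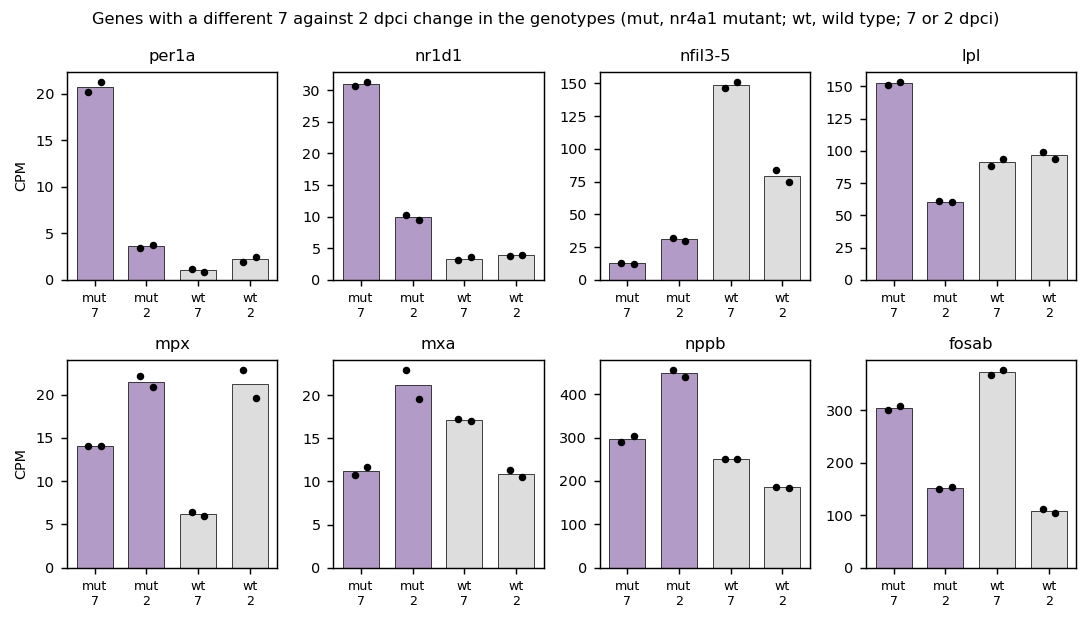
CPM of 8 genes in nr4a1 mutant libraries at 7 and 2 dpci (left, purple) and wild-type libraries at 7 and 2 dpci (right, grey), with bars for the mean of 2 libraries, points for the libraries and all vertical axes starting at 0. per1a, nr1d1 and lpl were called higher at 7 dpci in mutants and not in wild type, mxa was lower at 7 dpci in mutants and higher in wild type, and fosab was higher at 7 dpci in both.

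Some muscle and lipid genes also differed. Of 21 cardiomyocyte markers, 2 had a more positive and 3 a more negative change in the mutant. The counts were 1 and 4 of 15 wall stress genes, 5 and 2 of 35 fatty acid genes, and 0 and 0 of 20 calcium handling genes. Of all tested genes, 14.6% were called in either direction. tcap rose more in the mutant (1.47 against 0.35, difference 1.12 ± 0.067 (SE), edgeR adjusted p = 1.18e-21), as did myh7 (2.05 against 1.32, difference 0.73 ± 0.047 (SE), edgeR adjusted p = 4.21e-20) and lpl (1.33 against −0.078, difference 1.41 ± 0.065 (SE), edgeR adjusted p = 5.90e-27). nppb fell in the mutant while its wild-type change was 0.44 (difference −1.03 ± 0.054 (SE), edgeR adjusted p = 1.06e-24), and tnni1d, a troponin I gene, fell in the mutant and rose in wild type (−0.81 against 1.84, difference −2.65 ± 0.15 (SE), edgeR adjusted p = 1.84e-23). The B cell genes cd79a and cd79b, higher at 7 dpci in the mutant, had in wild type 26 and 27 counts at 7 dpci, against 18 and 23 counts at 2 dpci, and 9 and 13 counts at 7 dpci, against 11 and 9 counts at 2 dpci (differences 2.502 and 2.93, both called). Both genes were chosen after their values were seen. cd79b passed the count filter, which takes no account of wild type, through the mutant 7 dpci libraries alone, so its difference is a description.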

How the data were processed

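Ventricle RNA was extracted with Trizol, and libraries were made and sequenced on an Illumina platform by a commercial provider. The authors checked reads with FastQC, aligned them with STAR to the zebrafish genome (GRCz11/danRer11, per the submitters' processing notes), assigned them to genes with featureCounts, and deposited a table of unnormalized counts with 1 row per gene symbol. Tool versions, strand setting and the handling of reads with several alignments are not given in the sources used here, so related gene copies may share reads. The study's methods mention batch effects, but no batch is named and none was used.

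The analysis used edgeR 4.0.16 in R 4.3.3. A gene was tested if 2 or more of the 4 mutant libraries at 7 and 2 dpci held at least 10 of its reads. One coefficient per condition was fitted to all 16 libraries (8 conditions) with TMM scaling by glmQLFit (prior degrees of freedom 54.1, common biological coefficient of variation 3.41%). Contrasts were tested by glmQLFTest with Benjamini-Hochberg adjustment over 17310 genes. A call takes an adjusted p below 0.05 together with a log2 fold change beyond 0.5 in either direction. Standard errors come from the fold change and its F statistic. DESeq2 1.42.0, other scalings, filters and thresholds, a replicate block and leaving out each mutant library were alternatives. The steps were first tested on simulated data.

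The comparison, gene lists, tests and naming rule were chosen with earlier results of these data known. Named are nr4a1 and genes the study names, the 12 called genes with the largest rise and the 12 with the largest fall (at least 10 CPM at a stage, no overlap of libraries, no clone names), for each of 39 lists up to 4 called members with the largest change and up to 3 with the highest level, and the 6 genes at each end of the difference from wild type. Exceptions are stated, and some genes that this rule names are not reported here. No sequence or coordinate is given, since the reference tables are of another assembly than the files.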

Additional observations from a re-analysis of the deposited data

Results flagged for a closer look

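For 29 of the genes named here, the change at 7 against 2 dpci differed between mutant and wild type by more than 1 on the log2 scale, by the edgeR test of the difference itself (adjusted p of at most 0.025). Of all 17310 tested genes, 967 passed this cut. The naming rule took the 6 genes at each end of the difference from wild type. Some of the 29 therefore stand here by selection, and their number is a description. Each value is the mutant log2 fold change minus the wild-type one, from 2 libraries a group. No explanation was tested for any of them.

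The difference was positive, a more positive change in the mutant, for 15 genes. On few reads, star, chosen after its values were seen, differed by 4.67, nkl.3 by 3.34, cd79b by 2.93, cd79a by 2.502 and cd37 by 2.59. Of these, star, nkl.3 and cd79b passed the count filter through the mutant 7 dpci libraries alone, so their differences are a description. Of the clock genes, per1a differed by 3.65, ciarta by 1.96, nr1d1 by 1.85 and per3 by 1.44. Of the leukocyte genes, illr1 differed by 3.47, mpx by 1.17 and ncf1 by 1.05, with illr1 and mpx falling in both genotypes. The others were hsf2 with 1.496, lpl with 1.41 and tcap with 1.12.

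The difference was negative for 14 genes. For lgals2b it was −3.06, for fabp7b −2.15 and for plaua −1.11, genes that fell in both genotypes. The value of lgals2b is a description, since the gene passed the count filter through the mutant 2 dpci libraries alone. For tnni1d it was −2.65, for adamts1 −2.37 and for nfil3-5 −2.19, with a fall in the mutant and a rise in wild type. The same pattern of signs gave −1.57 for mxa, −1.18 for mxe, −1.17 for il11a, −1.18 for anxa2a and −1.03 for nppb, although the wild-type changes of mxe and nppb and the mutant change of anxa2a were not called. For mhc2b it was −2.37, for thbs4b −1.78 and for inhbaa −1.01, with a rise in both.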

How the results depend on the processing

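With the fold threshold placed inside the edgeR test, 973 genes were higher and 787 lower in the mutant, 1159 higher and 850 lower in wild type, and 812 differed between genotypes. With a log2 fold change over 1, these counts were 863, 493, 945, 704 and 967. Under library totals, DESeq2, its size factors, other count filters and a fit of the compared libraries alone, the counts stayed within 1.5 times of those reported. Without 1 mutant library, 1747 to 1787 genes were higher, 1957 to 2063 lower and 2270 to 2356 different, and nr4a1 changed by 0.66 to 0.68. The sample numbers did not pair libraries (correlation of deviations 0.0012 in mutants, 0.0056 in wild type). With them as a replicate block, the counts were 2138, 1911 and 2483, nr4a1 changed by 0.70, and no named gene that was followed changed its call. tnfrsf9b was not followed under the alternatives. Of 2002 values of named genes under the alternatives, 1951 kept their direction and call, 43 lost and 4 gained a call. The calls lost were mostly of genes near the threshold, such as myh6, gata5, pln and tgfb2. Genes near 0 reversed: mpeg1.1 to 0.0029 with DESeq2 size factors and 0.00284 in DESeq2, with a range of −0.071 to 0.0048 over the libraries left out (positive without 2 dpci replicate 2), and il1b with a range of −0.019 to 0.22 (negative without 7 dpci replicate 2). The endothelial median reversed to −0.054 under library totals, −0.020 with no count filter and −0.0066 without 7 dpci replicate 1, and the median of all tested genes to −0.075, to −0.042 and, with the compared libraries alone, to −0.0021. Of 858 counts of list members, 61 moved by over 1.5 times.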

Other observations

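Some genes of the comparison were followed over all 4 mutant stages, as values only. The mean CPM of 2 libraries (± SD) for postnb was 22 ± 3.35 at 0 dpci, then 61.8 ± 1.25 at 2 dpci, then 917 ± 11.4 at 7 dpci, then 349 ± 10.4 at 21 dpci. For apoeb it was 1.49 ± 0.112 at 0 dpci, then 311 ± 9.81 at 2 dpci, then 15.2 ± 0.768 at 7 dpci, then 2.94 ± 0.0101 at 21 dpci, so its level at 2 dpci stood above those of the other stages. For mki67 it was 2.6 ± 0.299 at 0 dpci, then 43.5 ± 1.72 at 2 dpci, then 17.7 ± 0.315 at 7 dpci, then 5.74 ± 0.0882 at 21 dpci, and for cd74a, 267 ± 5.35 at 0 dpci, then 158 ± 3.6 at 2 dpci, then 726 ± 23.7 at 7 dpci, then 457 ± 15.3 at 21 dpci. For nr4a1 it was 55.9 ± 1.32 at 0 dpci, then 82.8 ± 0.882 at 2 dpci, then 134 ± 1.24 at 7 dpci, then 168 ± 5.31 at 21 dpci. Both mki67 and apoeb were highest at 2 dpci among these stages, whereas postnb was highest at 7 dpci.

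A pair of steroid synthesis genes, chosen after their values were seen, had few reads, and passed the count filter only through the 7 dpci libraries, so their values are a description. star, which brings cholesterol into mitochondria, had 34 and 17 counts at 7 dpci, against 1 and 1 counts at 2 dpci, and in wild type 1 and 3 counts at 7 dpci, against 2 and 2 counts at 2 dpci. cyp17a2, an enzyme of steroid synthesis in fish, had 15 and 11 counts at 7 dpci, against 0 and 0 counts at 2 dpci and was at least 4.56-fold higher at 7 dpci, taken against a floor of 3 counts per library, and in wild type it had 0 and 1 counts at 7 dpci, against 0 and 1 counts at 2 dpci.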
